A study of Mus musculus with 12 samples.

Results

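The genes described here are 8 peroxins that carry enzymes into peroxisomes, measured by RNA sequencing of whole mouse kidney. They are Pex5 and Pex7 (receptors), Pex13 and Pex14 (docking at the membrane), Pex2 and Pex10 (ubiquitin ligase), and Pex6 and Pex26 (receptor release). All 8 were found by name among the 46882 gene names of the deposited count table, and all 8 were among the 16910 genes with enough reads to be tested. Pex5 was chosen by its lower CPM level in A1cf KO kidneys in these same libraries, so its values below are a description and carry no test. The other 7 were chosen for their role, with earlier results of these data known.

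The samples were kidneys of C57BL/6 mice aged 6 to 8 weeks, from 6 wild-type animals (WT) and 6 A1cf -/- animals (A1cf KO), with 1 library per animal. A1cf encodes an RNA-binding protein known as a cofactor of the cytidine deaminase APOBEC1. How the A1cf allele was made is not given in the sources used here, and the labels name no treatment. Libraries are called here by their animal number. These numbers fall into 573 to 602 (3 WT and 5 A1cf KO animals) and 776 to 780 (3 WT animals and 1 A1cf KO animal).

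Peroxisomes are small organelles that oxidise very long and branched fatty acids, make ether lipids and break down hydrogen peroxide. In the kidney they are most abundant in the proximal tubule. Their matrix enzymes are made in the cytosol and carry a targeting signal. PEX5 binds the signal at the C-terminus (PTS1), and PEX7 binds the N-terminal signal of a few enzymes (PTS2) and travels with the long form of PEX5. The loaded receptor docks on PEX13 and PEX14 and releases its cargo inside. It is then ubiquitinated by a ligase complex that holds PEX2 and PEX10 and pulled out by an ATPase complex that holds PEX6, which PEX26 anchors to the membrane.

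The start regions of the receptor genes are printed because Pex5 is the member whose level differed most, and Pex7 is the other receptor. Each runs from 250 bases before to 50 bases after a RefSeq start site (GRCm38.p6, minus strand, 5′ to 3′). Capitals mark the GC box GGGCGG or its reverse complement CCGCCC.
Pex5, chr6:124415018-124415317: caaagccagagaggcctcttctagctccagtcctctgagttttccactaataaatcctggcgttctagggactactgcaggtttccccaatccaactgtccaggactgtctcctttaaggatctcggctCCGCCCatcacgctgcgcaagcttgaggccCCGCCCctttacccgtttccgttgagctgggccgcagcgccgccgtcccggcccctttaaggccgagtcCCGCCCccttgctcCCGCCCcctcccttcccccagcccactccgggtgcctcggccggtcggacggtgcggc
Pex7, chr10:19907625-19907924: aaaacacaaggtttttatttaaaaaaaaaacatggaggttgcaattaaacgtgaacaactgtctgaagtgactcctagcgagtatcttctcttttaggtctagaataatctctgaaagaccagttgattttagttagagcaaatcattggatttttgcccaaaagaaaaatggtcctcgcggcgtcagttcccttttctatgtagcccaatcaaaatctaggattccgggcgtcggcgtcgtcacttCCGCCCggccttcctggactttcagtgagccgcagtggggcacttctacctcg

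Of the 3 Pex5 start regions in RefSeq, the one printed has its start site at 124415067, which is also the end of the gene in the count table. This window held 4 matches to the GC box on either strand, 22 CpG dinucleotides and 64.3% G and C. The Pex7 window held 1 match, 14 CpG and 44.0% G and C. Over the 32851 start regions of the same length in RefSeq, 35.7% held the GC box, and the medians were 7 CpG and 52.7% G and C. The CCAAT box (CCAAT, both strands) was found 1 time in the Pex5 window and 2 times in that of Pex7, and 37.4% of all start regions held it. The peroxisome proliferator response element (direct repeat type, both strands) was in none of the 9 windows of the 7 members with an entry, and 0.0396% of all start regions held it. These matches describe the letters of the windows and were not related to the levels.

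The A1cf reads matched the labels in every library. A1cf had 45.2 to 65.7 CPM (read counts relative to the TMM-scaled library size) in WT and 2.95 to 6.11 CPM in A1cf KO. Libraries held 26671705 to 52899139 counts, and of all genes tested 0.0473% were called in either direction by edgeR's quasi-likelihood test at an adjusted p of 0.05. The 12 animals are described as biological replicates.

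Pex5, the receptor for the PTS1 signal, was lower in every A1cf KO kidney than in any WT kidney. In WT its level was 95.6 CPM in animal 573, 105 in 590, 94.5 in 601, 89.8 in 776, 88.0 in 777 and 94.8 in 778. In A1cf KO it was 58.5 CPM in animal 574, 58.1 in 584, 57.0 in 588, 61.0 in 591, 58.7 in 602 and 54.1 in 780. The highest A1cf KO library lay well under the lowest WT library, and the A1cf KO libraries lay closer together, with a coefficient of variation of 3.93% against 6.22% in WT. The A1cf KO mean was 61.2% of the WT mean, and the fitted log2 fold change was -0.71 (SE 0.051, 95% interval -0.82 to -0.60). The SE and interval take no account of the choice of Pex5 by this difference, so they are not a test. These levels rest on 1599 to 5408 counts per library, where counting error alone is at most 2.50%.

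The lower Pex5 level was present in both ranges of animal numbers. Among animals 573 to 602 the 3 WT libraries had 94.5 to 105 CPM and the 5 A1cf KO libraries 57.0 to 61.0 CPM. Among animals 776 to 780 the 3 WT libraries had 88.0 to 94.8 CPM and the single A1cf KO library 54.1 CPM. Both genotypes were thus somewhat lower in the second range. The log2 fold change was -0.75 with the number range as a covariate and -0.75 within animals 573 to 602. Among the 9204 genes with a mean of at least 10 CPM, Pex5 had the 10th lowest log2 fold change, and 23 genes had a larger one in absolute size.

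**Figure D1:**
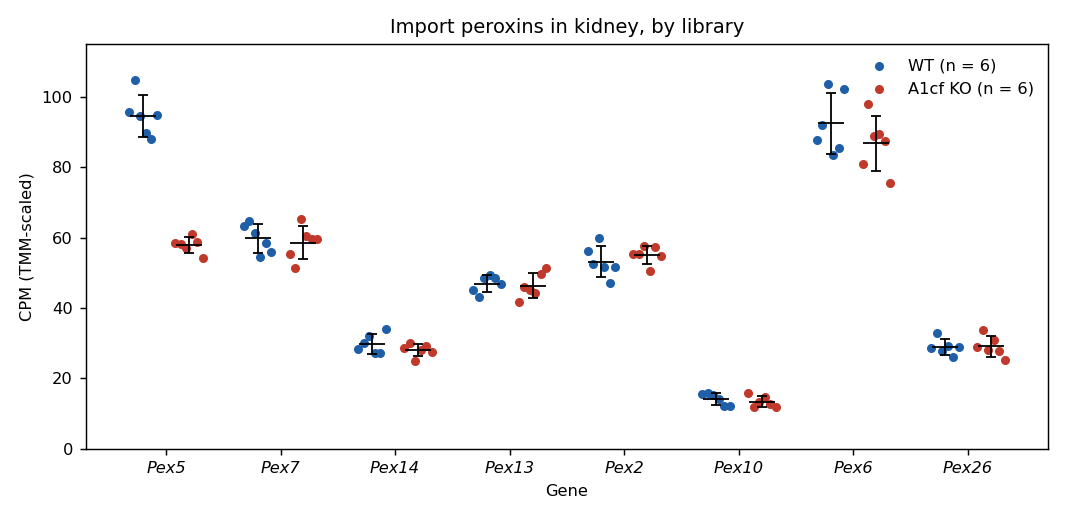
Level of each import peroxin (x axis) in CPM (y axis, from 0). Points are libraries, 6 WT in blue and 6 A1cf KO in red, and black marks show mean and SD. The genotypes are separate for Pex5 (88.0 to 105 against 54.1 to 61.0 CPM) and overlap for the other 7 genes.

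Pex5 lies on chromosome 6 from 124396816 to 124415067 on the minus strand of mm10 (Ensembl ENSMUSG00000005069), and its 17 counted exon segments hold 3943 bases. No other gene of the table shares counted exon bases with it, so its reads were not open to assignment to an overlapping gene. Reads were counted by gene name, and the long and short forms of Pex5, of which only the long one carries PEX7, cannot be told apart here.

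The genes around Pex5 gave no call. The nearest tested gene was Clstn3, a calsyntenin gene 15.7 kb away, with 0.71 CPM in WT against 1.03 in the knockout (edgeR adjusted p = 0.74). Next on that side were the complement protease gene family members C1rl (26.4 and 24.0 CPM, adjusted p = 0.82) and C1ra (10.7 and 12.6 CPM, adjusted p = 0.57). On the other side stood the macrophage receptor gene Cd163 (3.36 and 4.10 CPM, edgeR adjusted p = 0.89). The next tested genes beyond Cd163 were the lectin receptor genes Clec4a2 and Clec4b1, both more than 1000 kb from Pex5 and under 1 CPM. Of the 46 other tested genes within 1000 kb, 0 were called by edgeR, 4 had an unadjusted p under 0.05 (8.70%, against 10.4% of all genes tested), and 0 had genotypes that did not overlap, against 0.840% of all genes tested. Their median log2 fold change was 0.013, with 22 below 0 and 24 above. The 4 genes were Gm15884, P3h3, Vamp1 and Scnn1a, named after their values were seen.

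**Figure D2:**
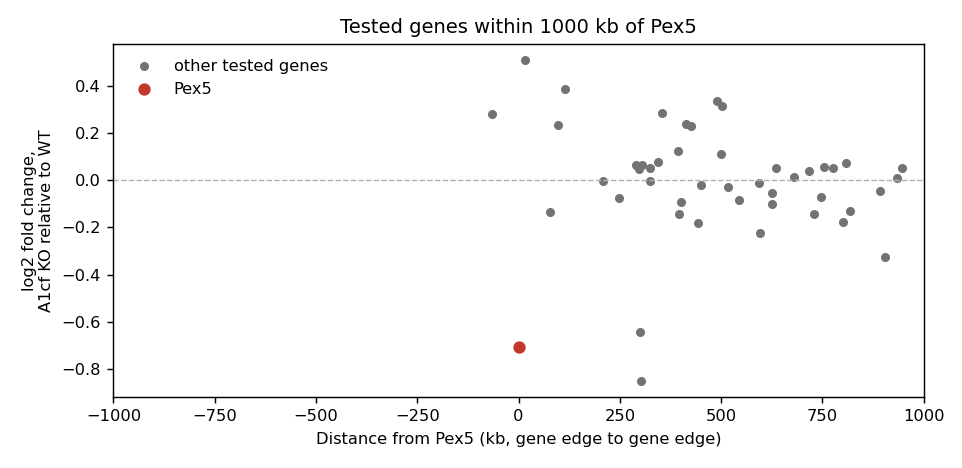
Tested genes within 1000 kb of Pex5, by distance from Pex5 in kb (x axis) and log2 fold change between A1cf KO and WT (y axis). Pex5 (red) is at -0.71, and the only points near or below it are the low-level genes Gm15884 (-0.65) and Gm29008 (-0.85).

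None of the other 7 import peroxins was called. By edgeR's quasi-likelihood test 0 of 7 passed, with adjusted p from 0.68 to 0.97, against 0.0473% of all genes tested. At an unadjusted p under 0.05 there were likewise 0 of 7, against 10.4% of all genes, and DESeq2 called 0 of 7, against 1.11%. Of the 7, 5 had a log2 fold change below 0 and 2 above, and the median was -0.029 (all genes tested: -0.0030, with 50.8% below 0). The median absolute log2 fold change was 0.051 for the 7 and 0.10 for all genes tested. The interval of each difference, in the fit with no covariate, sets its limit: the lowest lower bound was 81.7% of the WT level (Pex10) and the highest upper bound 113% (Pex2). A difference as large as that of Pex5 lay outside each of these 7 intervals.

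Pex7, the receptor for the PTS2 signal, had its lowest, median and highest library at 54.5, 59.9 and 64.8 CPM in WT and at 51.2, 59.6 and 65.2 CPM in A1cf KO. The ranges nearly coincided. The log2 fold change was -0.029 (95% interval -0.17 to 0.11, edgeR adjusted p = 0.90). Within animals 573 to 602 it was -0.12, with WT at 61.4 to 64.8 CPM and A1cf KO at 51.2 to 65.2 CPM, which still overlapped. Pex7 lies on chromosome 10 from 19859929 to 19907689 and has 10 counted exon segments.

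The docking genes did not differ beyond the spread between libraries. Pex14, which anchors the docking complex and binds PEX5 directly, had 27.2, 29.2 and 34.2 CPM (lowest, median and highest) in WT and 24.9, 28.4 and 29.9 CPM in A1cf KO. Its mean was 93.9% of WT (log2 fold change -0.092, 95% interval -0.24 to 0.056, edgeR adjusted p = 0.68). Gm17029 on the other strand shares 1776 of the 6272 counted exon bases of Pex14 (28.3%), and the counting used no strand, so the Pex14 level is uncertain. Gm17029 itself was low in both genotypes (1.78 and 1.51 CPM, edgeR adjusted p = 0.71).

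Pex13, the other docking protein gene, had 43.0, 47.7 and 49.2 CPM in WT and 41.8, 45.5 and 51.5 CPM in A1cf KO. The A1cf KO libraries spanned the whole WT range. The log2 fold change was -0.014 (95% interval -0.14 to 0.11, adjusted p = 0.95). Its exons share only 2 bases with Pus10, a pseudouridine synthase gene. Pex14 lies on chromosome 4 from 148960535 to 149099876 and Pex13 on chromosome 11 from 23646479 to 23665959.

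Of the ubiquitin ligase genes, Pex2 had 47.0, 52.2 and 59.8 CPM in WT and 50.6, 55.3 and 57.6 CPM in A1cf KO. It had the highest fold change of the 8 members, 0.051 on the log2 scale (95% interval -0.075 to 0.18, edgeR adjusted p = 0.80). Within animals 573 to 602 its sign turned (-0.027). Pex10 was the member with the fewest reads (351 to 841 counts), with 12.2, 14.8 and 15.8 CPM in WT and 11.9, 13.02 and 15.7 CPM in A1cf KO. Its log2 fold change was -0.089 (95% interval -0.29 to 0.11, adjusted p = 0.78). It was -0.17 with the number range as a covariate, -0.19 within animals 573 to 602 and -0.14 without A1cf KO 574, with adjusted p of 0.40, 0.69 and 0.71. Leaving out library 573, 590, 584 or 780 moved it to values from -0.059 to -0.055. The WT values of Pex10 differed by number range, with 15.4 to 15.8 CPM in animals 573 to 602 and 12.2 to 14.2 CPM in 776 to 778. Pex2 lies on chromosome 3 from 5560188 to 5576239 and Pex10 on chromosome 4 from 155067016 to 155072433.

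Of the release genes, Pex6, an ATPase that extracts PEX5 from the membrane, had 83.5, 89.9 and 104 CPM in WT and 75.5, 88.2 and 98.1 CPM in A1cf KO. Its mean was 93.9% of WT (log2 fold change -0.091, 95% interval -0.25 to 0.064, edgeR adjusted p = 0.69). The lowest library was A1cf KO 780. The gene lies on chromosome 17 from 46711463 to 46725541. Pex26, the membrane anchor of that ATPase, had 26.1, 28.7 and 32.9 CPM in WT and 25.3, 28.5 and 33.9 CPM in A1cf KO. The ranges overlapped almost fully, and the log2 fold change was 0.012 (95% interval -0.15 to 0.17, adjusted p = 0.97). Pex26 lies on chromosome 6 like Pex5, from 121183667 to 121198837. A transcript on the other strand, RP23-27C9.4, shares 133 of its exon bases (2.35%).

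**Figure D3:**
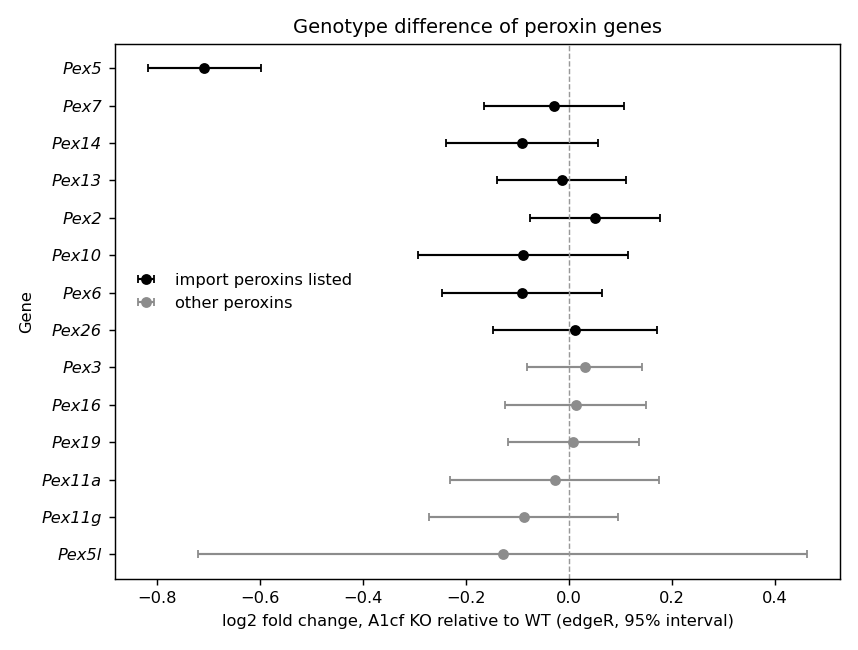
The 8 import peroxins (black) and 6 other peroxins (grey) by log2 fold change of A1cf KO over WT (x axis), with 95% intervals. Pex5 stands at -0.71, and the other intervals drawn reach no lower than -0.29 except that of the sparsely counted Pex5l. The interval of Pex5 takes no account of its choice by this difference.

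Per length, the members stood at 3 levels. In WT kidney, Pex7 had 25.4 ± 1.74 RPKM (CPM per 1000 counted exon bases), Pex6 24.3 ± 2.26, Pex5 24.0 ± 1.49 and Pex2 23.4 ± 1.92 (SD, n = 6 each). Neighbours in this order overlapped between libraries, so these 4 levels are not ordered beyond their spread. Pex13 followed with 10.1 ± 0.52 RPKM, Pex26 with 5.10 ± 0.39, Pex14 with 4.77 ± 0.45 and Pex10 with 4.32 ± 0.51. Pex13 was apart from its neighbours on both sides in every WT library, and Pex26, Pex14 and Pex10 overlapped in turn. The lengths are the merged exons of all annotated transcripts, so RPKM is low where much of that length is not used in kidney.

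In A1cf KO kidney, Pex5 was no longer level with Pex7, Pex6 and Pex2. It had 14.7 ± 0.58 RPKM, with 13.7 in the lowest and 15.5 in the highest library, while Pex7 had 24.9 ± 2.03, Pex2 24.3 ± 1.11 and Pex6 22.9 ± 2.04 RPKM. No A1cf KO library had as much Pex5 as the 19.9 RPKM of the lowest Pex6 value, and none as little as the 11.1 RPKM of the highest Pex13 value. Pex5 made up 19.8 ± 0.79% of the summed RPKM of the 8 genes in WT and 13.3 ± 0.49% in A1cf KO.

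The ratios within a library, which do not depend on library scaling, show the same difference against each partner. Pex5 stood to Pex7 at 0.95 ± 0.046 in WT (0.90 to 1.01) and at 0.59 ± 0.058 in A1cf KO (0.52 to 0.68). To Pex14 it stood at 5.06 ± 0.43 and 3.29 ± 0.21, and to Pex13 at 2.39 ± 0.27 and 1.48 ± 0.15. To Pex2, to Pex10, to Pex6 and to Pex26 the A1cf KO ratios were likewise all under the WT ratios, so the genotypes were separate for all 7 ratios. Each ratio carries the difference in Pex5 for which the gene was chosen.

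**Figure D4:**
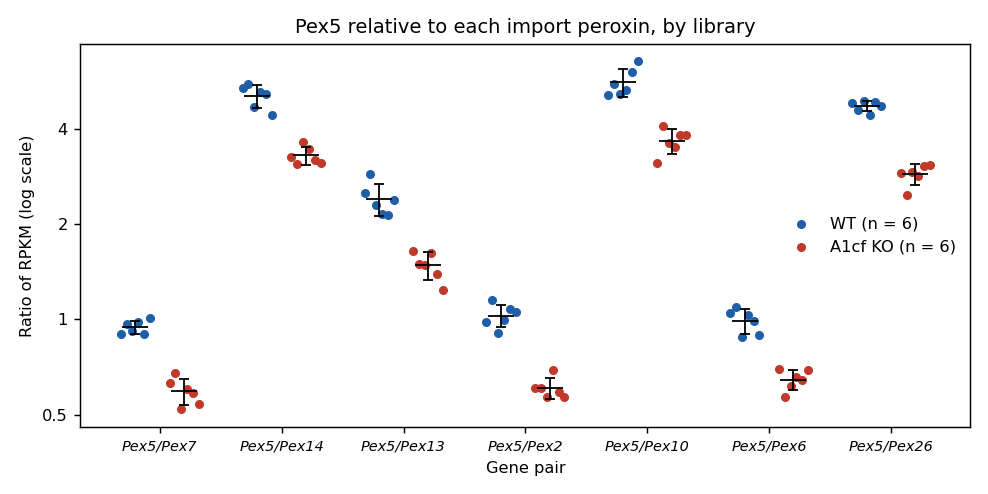
Pex5 RPKM divided by that of each other import peroxin (y axis, log scale). Points are libraries, 6 WT in blue and 6 A1cf KO in red, and black marks show mean and SD. WT and A1cf KO libraries do not overlap for any of the 7 pairs.

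Within genotypes, the members did not move as 1 group. After each genotype mean was taken out, the correlation of log2 CPM with Pex5 over the 12 libraries was 0.73 for Pex26, 0.60 for Pex10, 0.43 for Pex6, 0.40 for Pex14, 0.33 for Pex7 and 0.16 for Pex2. It was -0.70 for Pex13, whose correlation was also negative with Pex10 (-0.66) and Pex26 (-0.63). The libraries share their depth and scaling across genes, and these values are a description of 12 points.

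Over all 12 libraries, the genes with the pattern most like that of Pex5 were other genes separated by genotype, as were 0.840% of all genes tested. Because Pex5 was chosen for its genotype difference, a correlation over both genotypes favours such genes, and this outcome follows from that choice. Among 8982 genes with a mean of at least 10 CPM and a symbol that is not that of a predicted gene (Gm with digits, or ending in Rik), 4 of the 5 with the highest correlation to Pex5 over the 12 libraries were A1cf (0.96), Srpr (0.94), Exosc7 (0.94) and Ndrg3 (0.92). The most opposite were Gbas (-0.95), Ldlrad3 (-0.92) and BC003331 (-0.90). With the genotype means taken out the 5 most alike were Apba3 (0.95), Gaa (0.94), Glis2 (0.94), Rogdi (0.93) and Hdac6 (0.92). The genotypes overlapped for each of these 5 genes. Srpr, BC003331, Apba3, Glis2 and Rogdi share counted exon bases with other genes (1.16 to 10.2% of their length for each pair), so their levels are uncertain. The overlapping genes lie on the other strand, except Mir3057, which shares 1.23% of the length of Apba3 on the same strand.

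The rest of the peroxin family gave no call either. Of 9 other peroxins 0 passed in the edgeR test, against 0.0473% of all genes tested. Of the 9, 4 had a log2 fold change below 0 and 5 above, and the median was 0.0083.

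No membrane assembly gene was called, with Pex3 at 31.6 ± 1.21 and 32.2 ± 1.81 CPM, Pex16 at 43.1 ± 2.80 and 43.5 ± 3.62, and Pex19, which ferries membrane proteins, at 131 ± 9.47 and 131 ± 7.98 (edgeR adjusted p 0.88 to 0.97). Of the division genes, Pex11a had 125 ± 15.1 and 123 ± 17.3 CPM, and Pex11g 25.7 ± 2.55 and 24.2 ± 2.78 (adjusted p = 0.94 and 0.76). Pex3, Pex16 and Pex5l share small parts of their counted exons with other genes, so these levels are uncertain. Pex5l, a relative of Pex5 known mainly from brain, had only 1.46 ± 0.51 and 1.34 ± 0.48 CPM (adjusted p = 0.90).

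Genes that act on the PEX5 protein were not called either. Of 6 ubiquitin cycle genes 0 were called by edgeR and 0 had an unadjusted p under 0.05 (DESeq2: 0), and the median log2 fold change was 0.035. Ube2d3, a ubiquitin-conjugating enzyme gene and the most abundant, had 208 ± 16.3 and 218 ± 13.4 CPM. Trim37, whose product ubiquitinates PEX5, had 27.8 ± 1.49 and 28.1 ± 3.41 CPM, and Usp9x, which removes ubiquitin from it, 81.1 ± 11.2 and 86.3 ± 11.9 CPM.

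Of the transcripts of the enzymes that PEX5 imports, edgeR called 0 and DESeq2 1 (1.11% of all genes DESeq2 tested). Of 40 listed genes with a PTS1 signal 37 were tested, 14 with a log2 fold change below 0 and 23 above, and the median was 0.016. By edgeR 0 passed, and at an unadjusted p under 0.05 there were 1 lower and 2 higher (all genes tested: 5.28% lower and 5.07% higher). Cat, the catalase gene, had 1261 ± 35.4 and 1335 ± 57.9 CPM (edgeR adjusted p = 0.63). Cat, Trim37 and Usp9x are named after their values were seen.

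The lower one was Acot8, a peroxisomal thioesterase gene, with 27.7 ± 1.99 CPM in WT against 22.9 ± 0.62 in the knockout, a log2 fold change of -0.28. Its genotypes did not overlap, as for 0.840% of all genes tested, and its adjusted p was 0.14 by edgeR and 0.0031 by DESeq2. The 2 higher ones were Ephx2, an epoxide hydrolase gene (733 ± 18.4 and 881 ± 135 CPM, edgeR adjusted p = 0.32), and Eci3, an enoyl-CoA isomerase gene (log2 fold change 0.24, edgeR adjusted p = 0.48). These 3 are named after their values were seen.

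Of 5 genes for PTS2 cargo, which PEX7 carries, 0 passed and 1 was higher at an unadjusted p under 0.05 (5.07% of all genes tested). That was Agps, which makes ether lipids, with 273 ± 25.3 CPM in WT against 354 ± 93.8 in the knockout (edgeR adjusted p = 0.39), named after its values were seen. The most abundant, the thiolase gene Acaa1b, had 815 ± 163 and 830 ± 98.8 CPM (adjusted p = 0.96), and the median log2 fold change was 0.026. Of 13 genes for membrane transporters and division 0 passed, and 2 were lower at an unadjusted p under 0.05 (5.28% of all genes tested), Abcd4 and Fis1, named after their values were seen. Abcd2, a fatty acid transporter gene named after its values were seen, had the highest fold change but a low and variable level (1.73 ± 1.15 and 3.52 ± 2.83 CPM, edgeR adjusted p = 0.54). The median was -0.014, and Abcd3, the most abundant peroxisomal transporter gene here, had 673 ± 33.0 and 674 ± 39.6 CPM (adjusted p = 0.99).

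**Figure D5:**
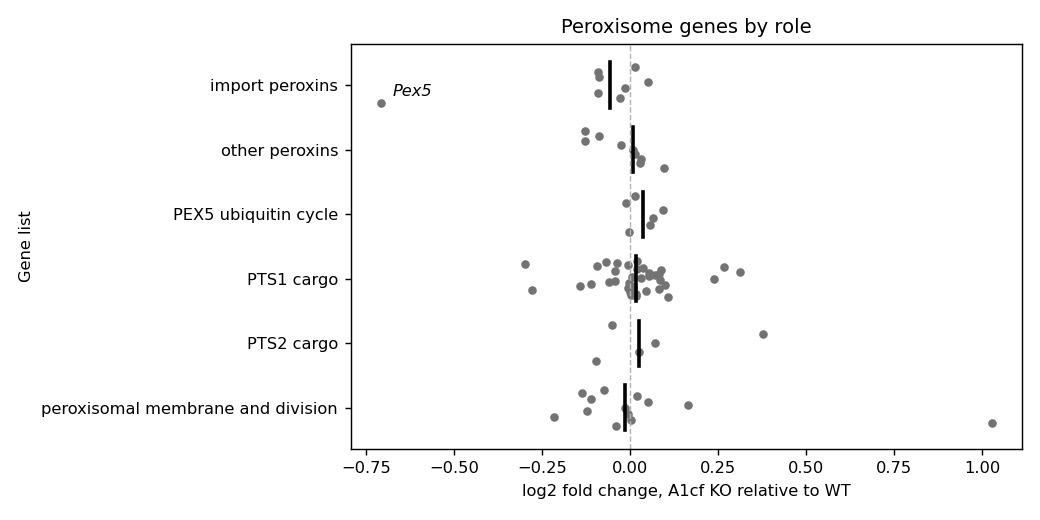
Tested genes (points) of 6 lists of peroxisome genes (y axis) by log2 fold change of A1cf KO over WT (x axis), where black bars mark list medians. Pex5 stands at -0.71, and the medians of the other lists lie between -0.014 and 0.035.

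Markers of kidney segments were checked beside these results, since whole kidney RNA mixes cell types and fewer cells of a type cannot be told apart from less RNA per cell. Proximal tubule markers overlapped between genotypes (summed level 14927 to 20804 CPM in WT and 16389 to 21422 in A1cf KO, 7 of 12 with a log2 fold change above 0), led by Slc27a2. Loop of Henle markers did not overlap: their sum was 5222 to 7465 CPM in WT and 3953 to 4987 in A1cf KO, 10 of 10 had a log2 fold change below 0 (50.8% of all genes tested), and Umod led them. EdgeR called 0 of these 10 and DESeq2 4 (1.11% of all genes it tested), and 9 were lower at an unadjusted p under 0.05 (5.28% of all genes tested). Distal and collecting duct markers, led by Slc12a3, were below 0 in 11 of 11 tested (1659 to 2213 and 1422 to 1818 CPM), and 5 of the 11 were lower at an unadjusted p under 0.05. The mitochondrial share of counts was 9.13 to 11.8% in WT and 11.1 to 12.7% in A1cf KO. The part of these shifts in the lower Pex5 level was not tested.

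The other marker sums overlapped between genotypes. Podocyte markers, led by Podxl, summed to 190 to 336 CPM in WT and 243 to 317 in A1cf KO, endothelial markers (Flt1) to 142 to 299 and 185 to 293, and immune markers (Csf1r) to 75.8 to 90.8 and 81.2 to 91.2. Of the 7 immune markers 2 were higher at an unadjusted p under 0.05 (5.07% of all genes tested). EdgeR called 0 of the 7 and DESeq2 1, Ctss (1.11% of all genes DESeq2 tested). The median log2 fold change of the 7 was 0.28. Fat markers (Fabp4) varied most, with 54.5 to 348 and 43.7 to 499 CPM. Liver markers (Ttr) summed to 33.0 to 81.6 and 29.3 to 62.7 CPM. Adrenal markers (Star) stayed at 3.26 to 5.32 and 3.21 to 4.16 CPM, and the adrenal gene Cyp11b2 had no read in any library.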

How the data were processed

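RNA of 12 whole kidneys was measured, with 1 library per animal. The authors deposited raw counts of reads per gene name, made with featureCounts 1.5.0-p2 over GENCODE M8 exons from alignments named as trimmed, duplicate-marked and merged, per the file headers. The header command sets no strand, pair or duplicate option. STAR, DESeq2 and the mm10 build are named in the submitters' processing notes. Whether the kit kept strand is not given in the sources used here.

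Gene tests used edgeR 4.0.16 (R 4.3.3) with filterByExpr by genotype (16910 of 46882 genes kept), TMM scaling, and the quasi-likelihood F test for genotype over all 12 libraries with no covariate. The Benjamini-Hochberg adjustment spanned every tested gene, and calls needed an adjusted p under 0.05. CPM use TMM-scaled library sizes, RPKM divide CPM by the counted exon bases that the deposited table gives, and log2 CPM for correlations use a prior count of 2. The fit was tested on simulated data. No 2 libraries agreed within sampling noise (smallest chi-square per degree of freedom 17.3 over 66 pairs).

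The members and all gene lists were chosen with earlier results of these data known. Genes named are the 8 members, the other peroxins, A1cf, up to 4 called genes and the most abundant gene of each of 15 lists, genes sharing exon bases with a member, the 3 nearest tested genes on each side of Pex5, and the 5 most like and 3 most opposite genes by correlation. Some genes that this rule takes are not reported here. Alternatives were DESeq2 size factors, upper-quartile scaling, mitochondrially encoded genes left out before scaling, no filter, a filter of 1 CPM in 6 libraries, DESeq2 1.42.0, limma 3.58.1 with voom, a robust fit, the animal number range as a covariate, only animals 573 to 602, and each library left out. Start regions come from RefSeq (GRCm38.p6), where 7 of 8 members had an entry.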

Additional observations from a re-analysis of the deposited data

Results flagged for a closer look

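Of 34 sets of 6 libraries (each of the 17 peroxins in each genotype), 1 held a library far from the others. Pex11a, which takes part in peroxisome division, stood at 154 CPM in WT 776, while the other 5 WT libraries had 111 to 123 CPM. The gap of 0.73 of the whole range exceeded the limit of 0.625 for 6 values, and chance gives about 1 in 20 such sets. In A1cf KO, Pex11a ran from 107 to 152 CPM, with the highest value in animal 780, of the same number range as 776.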

How the results depend on the processing

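The log2 fold change of Pex5 kept its direction and stayed within 1 SD of log2 CPM in all 22 alternatives, from -0.75 to -0.68, with -0.73 to -0.68 when 1 library was left out. In the same 22 alternatives 0 of the other 7 import peroxins and 0 of the 9 other peroxins were called. The count of all genes called was 8, rose to 170 with DESeq2 and to 24 with the number range as a covariate, and lay between 6 and 12 in the leave-one-out fits; the cause was not tested. Among uncalled members the sign of small fold changes turned. With the number range as a covariate Pex13 was at 0.025 and Pex26 at -0.036, and within animals 573 to 602 Pex2 was at -0.027. When 1 library was left out, Pex7 ran from -0.062 to 0.0067, Pex13 from -0.046 to 0.014 and Pex26 from -0.035 to 0.053. No paired analysis was run, because the labels used here give no pairing of animals. Depth limits Pex10 and Pex5l most, with 351 and 18 counts in their smallest libraries.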
